A study of Mus musculus with 6 samples.

Results

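The genes described here mark the vessels of inguinal subcutaneous white adipose tissue (SC-WAT). They comprise 36 listed genes, with 21 of endothelial cells, 10 of pericytes and smooth muscle cells (together called mural cells) and 5 of angiogenic ligands, out of 47069 genes counted. The members were taken from a written list of symbols, matched to the deposited Ensembl identifiers through the GENCODE annotation of GRCm38. The matching uses no measured value, but the list was chosen with earlier results of these data known. All 36 were among the 17667 genes with enough counts to be tested.

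Fat is densely vascularized. Endothelial cells line its capillaries, deliver fatty acids to the adipocytes and respond to VEGF, which adipocytes secrete, through the receptors KDR and FLT1. Pericytes are wrapped around the capillaries, smooth muscle cells ring the arterioles, and the angiopoietins act through the endothelial receptor TEK to set how tightly the wall is held.

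Total RNA of the fat pads was sequenced from 3 *Egr1*+/+ and 3 *Egr1*-/- mice, 1 strand-specific library per mouse after depletion of ribosomal RNA. All were female, 2 weeks old, on a C57BL/6 background (C57BL/6 J in the methods) and born to heterozygous parents. In the *Egr1*-/- mice *LacZ* was inserted into the 5′ untranslated region of *Egr1*, with a frameshift ahead of the DNA-binding domain, so every cell type carried the mutation from conception. The mice came from 4 litters, 1 mouse of each genotype being littermates that were not named. The question asked of these genes was whether the vascular wall transcripts of SC-WAT differed in the absence of EGR1, a zinc finger transcription factor.

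Each library held 29661984 to 42357981 counts on genes, of which 50.0% to 66.3% were mitochondrial, the highest share being that of *Egr1*-/- replicate 1. The inactivated gene itself had 353, 241 and 711 counts in *Egr1*+/+ replicates 1 to 3 and 103, 84 and 57 in *Egr1*-/- replicates 1 to 3, with no overlap (adjusted p of 0.0878 in edgeR, 1.78e-10 in DESeq2). The tissue carried its adipocyte markers, with *Adipoq* between 551 and 919 CPM (counts scaled to the normalized library size). The names of the deposited count tables hold 1 number common to the *Egr1*+/+ mice and *Egr1*-/- replicate 1 and another in *Egr1*-/- replicates 2 and 3. What the number stands for is not given in the sources used here, and in those 2 mice it cannot be told apart from the genotype.

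No member passed edgeR's quasi-likelihood test at a Benjamini-Hochberg adjusted p of 0.05, against 0.0170% of all genes tested. The lowest adjusted p of a member in that test was 0.227, for *Cspg4*. Without adjustment, 1 of 36 members had a p under 0.05 and a higher level in *Egr1*-/- mice, against 5.06% of all genes, and 4 had a p under 0.05 and a lower level, against 5.60%. Those lower were *Tek*, *Erg*, *Mcam* and *Kcnj8*, and the higher one was *Cspg4*. DESeq2, the tool of the study, gave an adjusted p under 0.05 to *Cspg4* and to no other member, beside 0.843% of genes called higher and 1.30% called lower. When no filter on low counts was applied, the edgeR adjusted p of *Cspg4* was 0.00541 and that of *Erg* 0.0127, with 552 genes called in all. The genotypes did not overlap in CPM for *Egfl7*, *Vwf* and *Cspg4*, higher in *Egr1*-/- mice, against 8.15% of all genes, nor for *Tek* and *Angpt2*, lower, against 8.10%. With 3 mice against 3, an exact two-sided permutation test of a single gene cannot give a p below 0.1. In these bulk samples a smaller number of cells of a type and less RNA per cell cannot be told apart.

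The median log2 fold change (*Egr1*-/- minus *Egr1*+/+) was 0.0095 over the 21 endothelial members, -0.27 over the 10 pericyte and smooth muscle members and -0.26 over the 5 ligands, beside 0.0011 over all genes tested. Relative to the median of all genes, which total-count scaling moved to -0.15, the mural median was negative under each normalization tried, and the endothelial median lay near 0. The 95% interval of the log2 fold change lay between -1 and 1 for 32 of 36 members, so a halving or a doubling fell outside it for most of them.

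**Figure D1:**
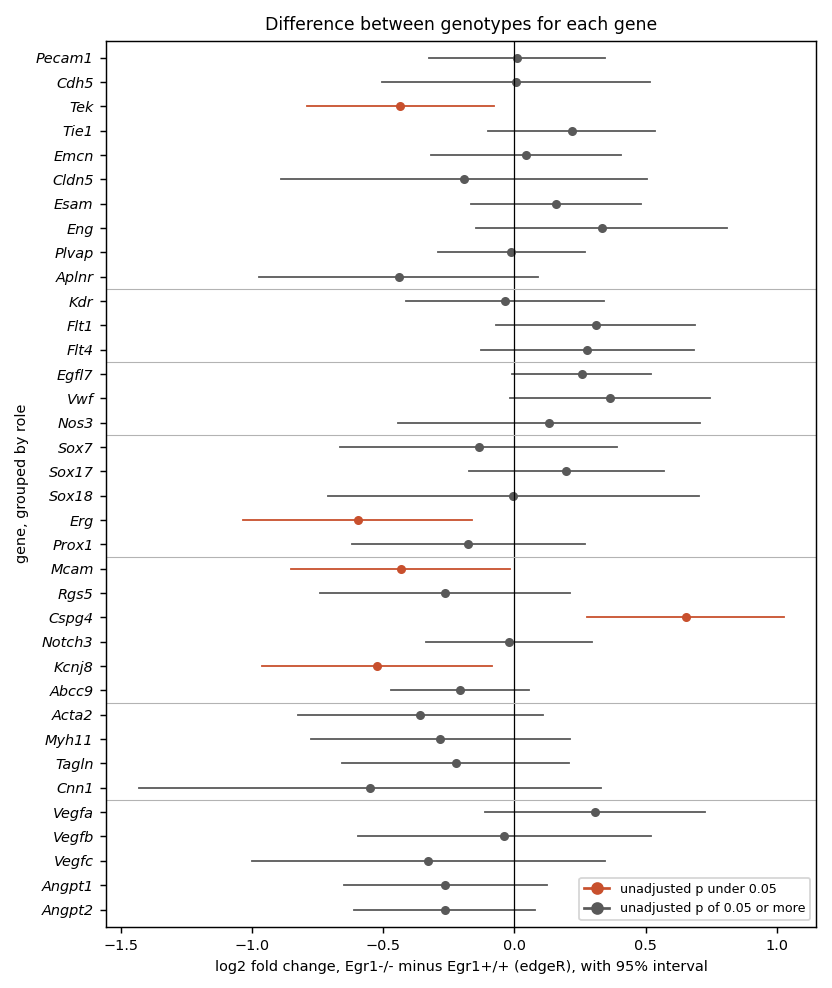
The log2 fold change of each of the 36 genes (horizontal axis, *Egr1*-/- minus *Egr1*+/+, edgeR) is drawn as a point with its 95% interval, the genes being grouped by role on the vertical axis. The intervals of *Tek*, *Erg*, *Mcam* and *Kcnj8* lie below 0 and that of *Cspg4* above it, all 5 with an unadjusted p under 0.05, while the other intervals include 0.

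EGR1 binds a GC-rich motif, searched here on both strands as GCGTGGGCG and GCGGGGGCG in the bases from 250 before to 50 after the RefSeq gene starts (GRCm38.p6). Both forms share letters with the GC box bound by Sp factors, so that a match of one can overlap the other. A window was found for 22 of the 36 members, and 3 of them (13.6%) held a match, as did 1063 of 27025 genes (3.93%). The stretches around these 3 matches are shown because they are the members whose start region carries the letters of the motif of the missing factor. They are written on the strand of the gene, ending at or before the base that precedes the start, with the motif in capitals (in *Flt1* and *Vegfb* it reads on the opposite strand).
Flt1, chr5:147726012-147726061, minus strand: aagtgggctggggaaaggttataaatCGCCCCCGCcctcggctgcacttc
Notch3, chr17:32166930-32166990, minus strand: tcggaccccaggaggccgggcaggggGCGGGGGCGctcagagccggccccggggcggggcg
Vegfb, chr19:6987737-6987797, minus strand: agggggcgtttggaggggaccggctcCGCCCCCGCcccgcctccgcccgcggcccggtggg
The motif began 24 bases before the start of *Flt1*, 74 before that of *Notch3* and 120 before that of *Vegfb*. The log2 fold changes of these genes were 0.31 ± 0.17 (SE), -0.02 ± 0.14 and -0.04 ± 0.25, and none had an unadjusted p under 0.05. No window was at hand for *Pecam1*, *Cdh5*, *Esam*, *Plvap*, *Aplnr*, *Vwf*, *Nos3*, *Sox7*, *Sox17*, *Sox18*, *Myh11*, *Tagln*, *Angpt1* and *Angpt2*.

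Levels of different genes were compared per length, as CPM per kb of exon. The pericyte gene *Rgs5*, a regulator of G protein signalling, stood highest, at 72.4 ± 13.7 CPM per kb (SD, n = 3) in *Egr1*+/+ mice. *Mcam* (31.0 ± 7.47), the endothelial junction gene *Cdh5* (26.9 ± 4.996), the smooth muscle actin gene *Acta2* (23.5 ± 4.89) and *Vegfa* (22.8 ± 5.89) followed, and from *Mcam* on neighbours in this order lay within each other's spread. At the lower end *Flt4* (0.738 ± 0.134), *Prox1* (0.871 ± 0.207) and *Vegfc* (0.882 ± 0.283), a lymphatic receptor, the lymphatic transcription factor and the ligand of that receptor, again did not differ beyond their spread. The lowest count of a member was 40, for *Cnn1* in 1 mouse, while *Rgs5* had 6383 or more in each.

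**Figure D2:**
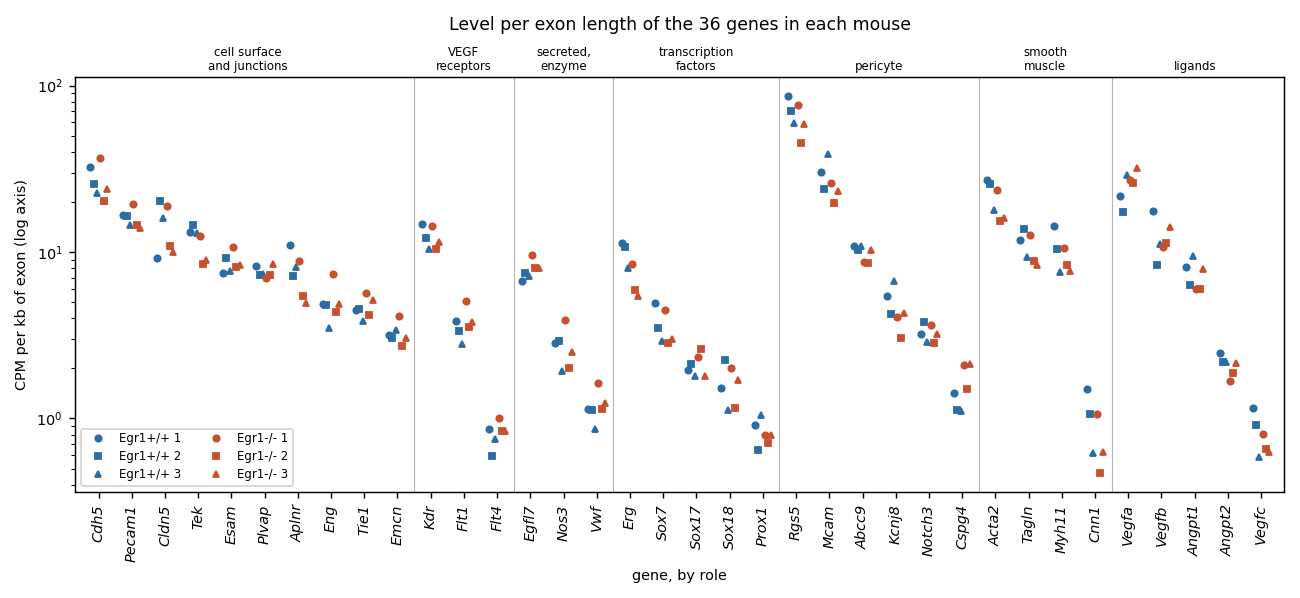
Each point is the level of a gene in 1 mouse in CPM per kb of exon, on a logarithmic axis, with the 36 genes ordered by role and then by level, blue for *Egr1*+/+ and orange for *Egr1*-/- mice. *Rgs5* leads, the levels run down to around 1 CPM per kb for *Cnn1*, *Flt4*, *Prox1* and *Vegfc*, and the genotypes overlap for most genes.

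Among the VEGF receptors, *Kdr*, the main signalling receptor for VEGF, lay at 133, 109 and 93.9 CPM in *Egr1*+/+ and 129, 94.6 and 104 CPM in *Egr1*-/- mice. The ranges overlapped, and the log2 fold change was -0.04 ± 0.17 (SE). *Flt1*, which encodes a receptor that holds VEGF with little signalling, had 51.9, 45.4 and 37.7 CPM in *Egr1*+/+ and 68.2, 48.0 and 51.0 CPM in *Egr1*-/- mice. *Egr1*-/- replicate 1 was the highest of all mice, replicates 2 and 3 lay within the *Egr1*+/+ range, and the adjusted p was 0.573 with edgeR. *Flt4*, the VEGF-C receptor of lymphatic vessels, was between 4.92 and 7.12 CPM in *Egr1*+/+ and between 6.93 and 8.24 CPM in *Egr1*-/- mice, also overlapping.

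Of the 10 endothelial surface and junction genes, 6 had a positive and 4 a negative log2 fold change, with a median of 0.0080. *Cdh5*, the VE-cadherin of the endothelial junction, measured 136, 108 and 94.8 CPM in *Egr1*+/+ and 155, 84.6 and 101 CPM in *Egr1*-/- mice. *Pecam1*, another junction molecule, measured 104, 102 and 90.5 CPM against 121, 90.5 and 87.4 CPM. In both genes *Egr1*-/- replicate 1 was the highest of the 6 mice, replicates 2 and 3 were near the lowest *Egr1*+/+ mouse, and the fitted differences were 0.01 on the log2 scale.

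*Tek*, the angiopoietin receptor TIE2, departed from its neighbours. It was at 61.9, 68.4 and 61.1 CPM in *Egr1*+/+ and at 59.1, 40.0 and 42.3 CPM in *Egr1*-/- mice. The *Egr1*-/- mice were below all *Egr1*+/+ mice, replicate 1 by a small margin and replicates 2 and 3 by more. The log2 fold change was -0.44 (95% interval -0.79 to -0.08), with an unadjusted p of 0.0219 and an adjusted p of 0.365 in edgeR. Its relative *Tie1*, which has no angiopoietin of its own and modulates TEK, lay at 0.22 ± 0.14 (SE) on the same scale, its mice overlapping.

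The remaining surface genes did not separate the genotypes. *Aplnr*, the apelin receptor, had the most negative value of the role beside *Tek*, -0.44 ± 0.24 (SE), with 26.6 to 40.5 CPM in *Egr1*+/+ and 18.3 to 32.9 CPM in *Egr1*-/- mice. *Eng*, a TGF-beta co-receptor, had the most positive, 0.33 ± 0.21 (SE), and *Emcn*, *Cldn5*, *Esam* and *Plvap*, which code for a capillary sialomucin, a tight junction protein, a junctional adhesion molecule and the protein of fenestral diaphragms, were between -0.19 and 0.16.

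The 3 genes for secreted proteins and an enzyme all had positive values. *Egfl7*, an endothelial matrix protein, was at 24.1, 26.8 and 25.6 CPM in *Egr1*+/+ and at 34.1, 28.7 and 28.6 CPM in *Egr1*-/- mice. *Vwf*, the von Willebrand factor stored in endothelial granules, was at 18.2, 18.1 and 13.9 CPM against 26.4, 18.4 and 19.9 CPM. For both genes every *Egr1*-/- mouse exceeded every *Egr1*+/+ mouse, in *Vwf* replicate 2 by less than 1 CPM, and the edgeR adjusted p was 0.480 for *Egfl7* and 0.487 for *Vwf*. *Nos3*, the endothelial nitric oxide synthase, had 11.7, 12.1 and 7.95 CPM against 16.1, 8.32 and 10.3 CPM, with overlap. Of the 4132 exon bases of *Nos3* 1040 are shared with an antisense gene, *Gm15587*, and of those of *Egfl7* 7.37% with *Gm20532* on the same strand. Whether the counting used the strand is not stated.

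Among the transcription factors, *Erg*, an ETS factor that maintains endothelial identity and junctions, had the largest negative log2 fold change of the 36 genes. Its levels were 39.1, 37.3 and 27.7 CPM in *Egr1*+/+ and 29.3, 20.4 and 19.0 CPM in *Egr1*-/- mice. *Egr1*-/- replicate 1 lay above *Egr1*+/+ replicate 3, so the genotypes overlapped by that pair alone. The log2 fold change was -0.60 (95% interval -1.03 to -0.16), with an unadjusted p of 0.0126, an adjusted p of 0.315 in edgeR and 0.0840 in DESeq2. *Sox7*, of the SOXF family of vascular factors, had 16.3, 11.6 and 9.57 CPM against 14.7, 9.35 and 9.94 CPM. Its relatives *Sox17* (0.20 ± 0.17, SE) and *Sox18* (-0.01 ± 0.31) and the lymphatic factor *Prox1* (-0.18 ± 0.20) overlapped between genotypes too. Of the *Sox17* exon bases 16.8% are shared with *Gm37587* on the opposite strand.

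Across the 21 endothelial genes the mutants were not alike. *Egr1*-/- replicate 1 had the highest level of the 3 mutants in 18 of them (85.7%), against 34.9% of all genes tested. The summed level of the 21 genes was 774, 717 and 629 CPM in *Egr1*+/+ and 867, 597 and 633 CPM in *Egr1*-/- mice, so that replicate 1 exceeded, and replicates 2 and 3 lay below or at the lower end of, the *Egr1*+/+ range. A second list of 30 other endothelial genes had the same mouse highest in 26. The part of this mouse in the endothelial values was measured by leaving it out.

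**Figure D3:**
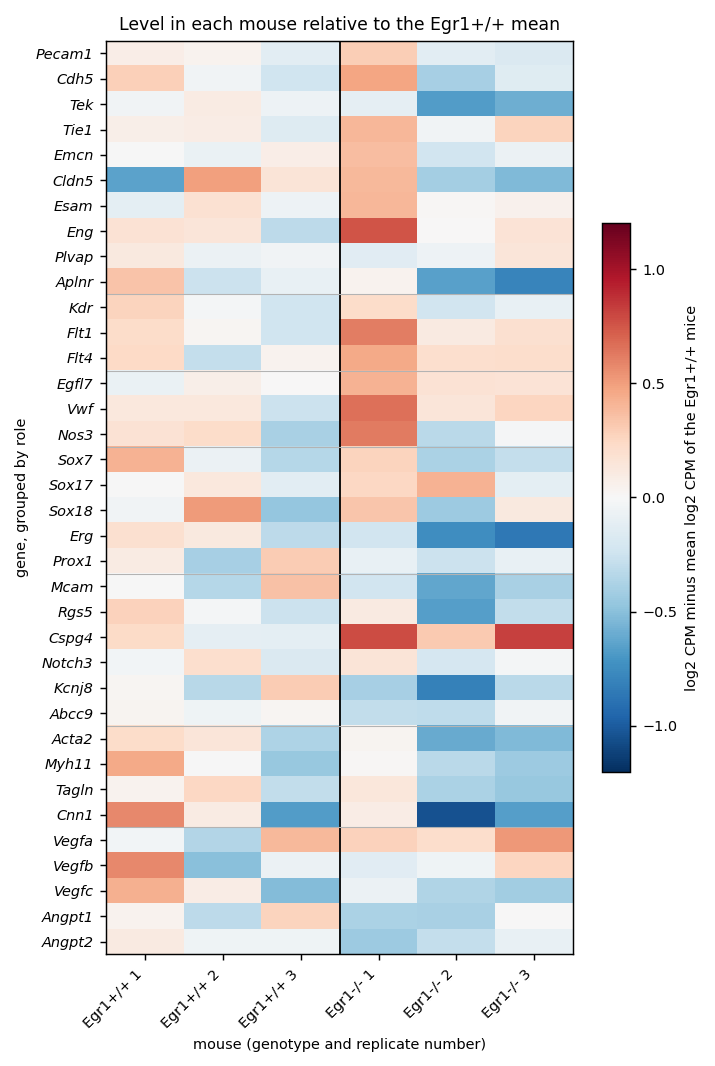
Colours give the log2 CPM of each gene (rows, by role) in each mouse (columns) minus the mean of the *Egr1*+/+ mice, red for higher and blue for lower. The column of *Egr1*-/- replicate 1 is red over most endothelial genes, while those of replicates 2 and 3 are pale or blue there, and *Cspg4* is red in all 3 *Egr1*-/- mice.

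Without *Egr1*-/- replicate 1, 9 members had an unadjusted p under 0.05 and a lower level in the mutants, against 7.26% of all genes, and 1 had a higher level, against 5.70%. Those lower were *Tek*, *Aplnr*, *Erg*, *Mcam*, *Rgs5*, *Kcnj8*, *Acta2*, *Tagln* and *Cnn1*, and the higher one was again *Cspg4*. None had an edgeR adjusted p under 0.05, the lowest being 0.0880 for *Tek* with a log2 fold change of -0.63 ± 0.13 (SE). The genotypes then did not overlap for 8 lower members, against 15.5% of all genes, and for 3 higher ones, against 15.1%. The endothelial median became -0.15 and the mural median -0.46. This comparison had 3 mice against 2, both mutants carrying the other number in their table names. The mouse was left out because its values in these same genes were high. Leaving it out was therefore bound to lower the mutant means of most of them. The shares over all genes are not a like background for these counts, which carry no conclusion on the genotypes. Leaving out any other single mouse gave a mural median between -0.36 and -0.20, and single mural genes came closer to 0, with *Rgs5* at -0.09 without *Egr1*-/- replicate 2, *Tagln* at -0.09 without *Egr1*+/+ replicate 2, *Myh11* at -0.04 without *Egr1*+/+ replicate 1 and *Mcam* at -0.24 without *Egr1*+/+ replicate 3.

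Whether the variation that the endothelial genes share between mice reflects how much endothelial RNA a sample held was not tested. To take that variation out, each endothelial gene was also expressed relative to the geometric mean of the other 20 of the same mouse. The mural genes and ligands were expressed relative to all 21. This ratio was added after the values had been seen and carries no test. On it, the genotypes did not overlap for 4 endothelial members and 1 mural member that were higher in *Egr1*-/- mice, against 3.17% of all genes, and for 2 endothelial and 3 mural members that were lower, against 6.97%. The ratio takes out the variation between mice that the endothelial genes share, so these shares are not a like background for them. An exact permutation test could not go below 0.1 here either. *Egfl7* and *Angpt2*, whose genotypes did not overlap in CPM, did overlap on the ratio.

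*Tek* was 1.50, 1.70 and 1.72 above the other endothelial genes on the log2 scale in *Egr1*+/+ mice and 1.21, 1.13 and 1.13 above them in *Egr1*-/- mice. *Erg* was at 0.81, 0.78 and 0.52 against 0.14, 0.12 and -0.08. On this scale the mutants lay together. For *Erg*, *Egr1*-/- replicate 1 no longer reached the *Egr1*+/+ mice, while for *Tek* it had not reached them in CPM either. *Flt1* was at 1.24, 1.08 and 0.99 against 1.42, 1.41 and 1.41. *Vwf* was at -0.35, -0.31 and -0.51 against -0.02, -0.05 and -0.01. The levels of both, relative to the other endothelial genes, were thus higher in all *Egr1*-/- mice, and so were those of *Tie1* and *Eng*, by 0.21 and 0.32 between the means. For *Tie1* the margin was small, the lowest *Egr1*-/- value being 0.069 and the highest *Egr1*+/+ value 0.007.

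**Figure D4:**
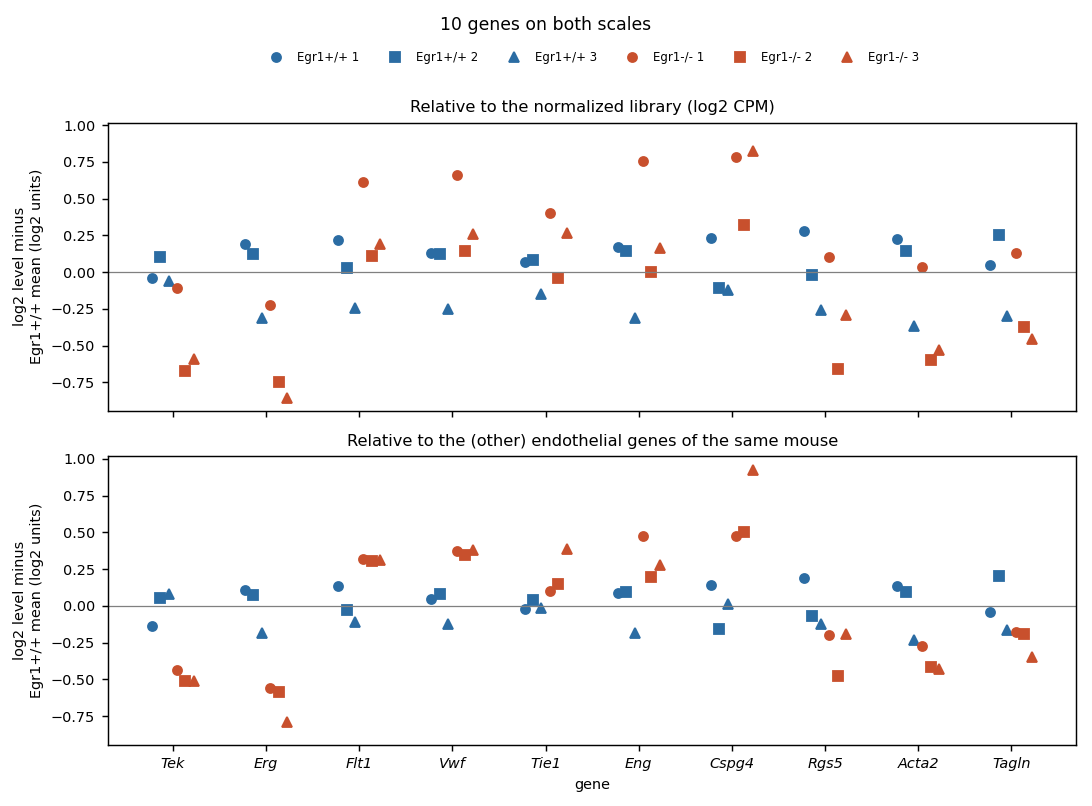
The 10 members whose genotypes do not overlap relative to the endothelial genes are shown per mouse as log2 levels minus the *Egr1*+/+ mean, above on the scale of the normalized library (log2 CPM) and below relative to the endothelial genes of the same mouse. In the lower panel the *Egr1*-/- points of *Tek*, *Erg*, *Flt1* and *Vwf* draw together. That they lie apart from the *Egr1*+/+ points there follows from how the genes were chosen.

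Among the pericyte genes 5 of 6 had a negative value, with a median of -0.24, and *Cspg4* a positive one. *Cspg4*, the NG2 proteoglycan of the pericyte surface, was at 16.9, 13.3 and 13.2 CPM in *Egr1*+/+ and at 24.8, 18.0 and 25.51 CPM in *Egr1*-/- mice. Every *Egr1*-/- mouse was above every *Egr1*+/+ mouse, the lowest of them by about 1 CPM. The log2 fold change was 0.65 (95% interval 0.28 to 1.03), a 1.57-fold level, with an unadjusted p of 0.00344 and an adjusted p of 0.227 in edgeR, 0.0320 in DESeq2 and 0.225 in limma-voom. Under the 16 alternatives the fold change stayed between 0.50 and 0.80 on the log2 scale, with an adjusted p from 0.0054 to 0.720 in edgeR, DESeq2 or limma-voom.

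*Kcnj8* and *Abcc9* code for the 2 subunits, pore and sulphonylurea receptor, of the potassium channel of pericytes and lie next to each other on chromosome 6. *Kcnj8* measured 14.0, 10.8 and 17.0 CPM in *Egr1*+/+ and 10.3, 7.80 and 10.9 CPM in *Egr1*-/- mice, the highest mutant just passing the lowest *Egr1*+/+ mouse, with a log2 fold change of -0.52 (95% interval -0.96 to -0.09) and an adjusted p of 0.375 in edgeR. *Abcc9* was between 86.1 and 91.0 CPM in *Egr1*+/+ and between 72.1 and 86.7 CPM in *Egr1*-/- mice, also overlapping by 1 mouse. *Mcam*, CD146, an adhesion molecule of pericytes, smooth muscle and endothelium, measured 101, 80.0 and 130 CPM against 86.9, 65.9 and 77.5 CPM. Its log2 fold change was -0.43 (95% interval -0.85 to -0.02) with an adjusted p of 0.448 in edgeR, and *Egr1*-/- replicate 1 lay above *Egr1*+/+ replicate 2.

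*Rgs5* measured 395, 320 and 272 CPM in *Egr1*+/+ and 350, 206 and 265 CPM in *Egr1*-/- mice. Its genotypes overlapped through *Egr1*-/- replicate 1, and the value was -0.27 ± 0.21 (SE). *Notch3*, the mural Notch receptor, lay between 23.1 and 30.6 CPM over all mice and differed by -0.02 ± 0.14 (SE). The pericyte list thus held values on both sides of 0, from -0.52 to 0.65.

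All 4 smooth muscle genes had negative values, from -0.55 to -0.22, and none had an unadjusted p under 0.05. *Acta2* was at 59.3, 56.2 and 39.4 CPM in *Egr1*+/+ and at 52.1, 33.5 and 35.1 CPM in *Egr1*-/- mice. *Tagln*, which codes for the actin-binding protein SM22, was at 23.6, 27.2 and 18.6 CPM against 25.0, 17.6 and 16.7 CPM. *Egr1*-/- replicate 1 was the highest mutant in all 4, inside the *Egr1*+/+ range of each, and replicates 2 and 3 were below that range for *Acta2* and *Tagln*. The smooth muscle myosin gene *Myh11* differed by -0.28 ± 0.22 (SE) and the calponin gene *Cnn1* by -0.55 ± 0.39. Relative to the endothelial genes of the same mouse, *Rgs5*, *Acta2* and *Tagln* were lower in every *Egr1*-/- than in every *Egr1*+/+ mouse, by 0.29, 0.37 and 0.24 between the means on the log2 scale. The margins were small. The highest *Egr1*-/- and lowest *Egr1*+/+ values were 3.72 and 3.79 for *Rgs5*, 0.966 and 1.0045 for *Acta2*, and -0.090 and -0.076 for *Tagln*. Of the *Tagln* exon bases 62.4% are shared with an antisense gene, *Gm48529*, and reads of either cannot be told apart if strand was not used.

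Myoepithelial cells of the mammary gland, which lies in this fat pad, also make these contractile proteins. The 8 mammary epithelial markers summed to 5.23 to 17.6 CPM in *Egr1*+/+ and 9.46 to 14.1 CPM in *Egr1*-/- mice, with *Krt5* and *Krt14* at 2.73 CPM or less. None of the 8 had an unadjusted p under 0.05. The 12 skeletal muscle markers summed to between 110 and 3651 CPM and differed among mice of both genotypes. With their level as a covariate, added after the data had been seen, the mural median was -0.28. The part of myoepithelial and skeletal muscle cells in the values of the contractile genes was not tested.

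Of the ligands, none differed with an unadjusted p under 0.05. *Vegfa*, the VEGF that KDR and FLT1 bind, was at 93.3, 74.8 and 125 CPM in *Egr1*+/+ and at 116, 111 and 137 CPM in *Egr1*-/- mice. *Egr1*+/+ replicate 3 lay inside the *Egr1*-/- range and the other two below it, and the log2 fold change was 0.31 (95% interval -0.11 to 0.73). *Vegfb*, a FLT1 ligand, had 28.3, 13.4 and 18.0 CPM against 17.2, 18.2 and 22.7 CPM, the mutants lying inside the wide *Egr1*+/+ range.

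*Vegfc*, the lymphatic VEGF, had 2.82, 2.23 and 1.44 CPM against 1.98, 1.61 and 1.55 CPM, from 48 to 97 counts per mouse, and the 95% interval of its log2 fold change was wide at this depth, from -1.003 to 0.35. *Angpt1*, the mural ligand that activates TEK, had 42.0, 32.8 and 49.2 CPM against 31.3, 31.1 and 40.9 CPM. *Angpt2*, the endothelial ligand that mostly opposes it, had 9.07, 8.08 and 8.09 CPM against 6.18, 6.90 and 7.91 CPM. The *Egr1*-/- mice were all below the *Egr1*+/+ mice for *Angpt2*, replicate 3 by a small margin, while *Angpt1* overlapped, and the log2 fold changes of *Angpt1* and *Angpt2* were -0.26 ± 0.17 (SE) and -0.27 ± 0.15. Both angiopoietins and their receptor *Tek* thus had lower mean levels in *Egr1*-/- mice, none with an edgeR adjusted p under 0.05. Of the *Angpt1* exon bases 14.2% are shared with an antisense gene, *Gm17473*, whose reads count there too if strand was not used.

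The same pathways were followed in lists of other genes. Of all genes tested, 5.06% were higher and 5.60% lower with an unadjusted p under 0.05. Of 14 tested genes of VEGF and angiopoietin signalling, 1 had an unadjusted p under 0.05, the adaptor *Shc2*, with a log2 fold change of -0.73 ± 0.22 (SE). The next lowest p were those of the FLT1 ligand *Pgf* (-0.64 ± 0.29) and the oxygen sensor *Egln1* (0.31 ± 0.15). Of 14 genes of Notch signalling and arteriovenous identity, 1 had a p under 0.05, the venous receptor *Ephb4* (0.41 ± 0.18), followed by *Hes1* (-0.34 ± 0.16) and *Notch1* (0.28 ± 0.13). Both lists had medians near 0, at 0.05 and -0.03.

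The list of 30 other endothelial genes had a median of -0.03. In it 1 gene was lower and 1 higher at an unadjusted p under 0.05, against 5.60% and 5.06% of all genes. The lower one was *Cd34*, which adipose stromal progenitors express as well. It lay at 179, 159 and 164 CPM in *Egr1*+/+ and at 129, 86.0 and 90.9 CPM in *Egr1*-/- mice without overlap, and had an adjusted p of 0.204 in edgeR and 0.00323 in DESeq2. *Shank3* (0.37 ± 0.16, SE) and the apelin gene *Apln* (-0.70 ± 0.31) came next. In the lymphatic list, 3 of 8 genes were lower with an unadjusted p under 0.05, against 5.60% of all genes. They were *Pdpn* (-0.53 ± 0.15, SE), *Reln* (-0.34 ± 0.13) and *Mmrn1* (-0.68 ± 0.29). Fibroblasts can express *Pdpn* too, while *Lyve1*, *Flt4* and *Prox1* overlapped between genotypes.

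Of 14 other pericyte and PDGF genes, 12 had a negative value, the median being -0.10. An unadjusted p under 0.05 was found for 3, all lower, against 5.60% of all genes. They were *Steap4* (-0.54 ± 0.13, SE), which adipocytes also express and for which DESeq2 gave an adjusted p of 0.0218, *Cox4i2* (-1.10 ± 0.28), a cytochrome oxidase subunit found in pericytes, and *Anpep* (-0.33 ± 0.15). *Pdgfrb*, a PDGF receptor of mural cells, though not of them alone, was at 41.8, 41.2 and 44.2 CPM against 44.1, 33.9 and 41.2 CPM, with overlap. It was chosen for mention after its values had been seen. Of 16 other smooth muscle genes, 13 had a negative value, the median being -0.24. An unadjusted p under 0.05 was found for 4, all lower, against the same 5.60%. *Sncg* (-1.06 ± 0.22, SE), abundant in adipocytes too, *Cald1* (-0.51 ± 0.14) and *Synpo2* (-0.42 ± 0.14) had the lowest p, and DESeq2 gave *Sncg* an adjusted p of 8.15e-05. The negative values include those of *Tpm1* (-0.90 ± 0.54) and *Tpm2* (-0.49 ± 0.90). Like the summed skeletal muscle markers, both were highest in *Egr1*+/+ replicate 2 and next in *Egr1*-/- replicate 3. The part of skeletal muscle in them was not tested.

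Genes of other cell types differed as well. Of 6 tested beige adipocyte genes, all 6 were higher without overlap, against 8.15% of all genes, with a median of 1.03. Their summed levels were 505 to 656 CPM in *Egr1*+/+ and 908 to 1518 CPM in *Egr1*-/- mice. DESeq2 called *Ucp1*, *Dio2*, *Plin5*, *Ppargc1a*, *Cidea* and *Cox8b* higher, against 0.843% of genes. All 9 stromal fibroblast genes had lower values, with a median of -0.61. Each had an unadjusted p under 0.05, against 5.60% of all genes lower. Their summed levels were 5122 to 6171 against 3129 to 4267 CPM. The fibroblast genes, too, were highest in *Egr1*-/- replicate 1 among the mutants, in 9 of 9. Of them, DESeq2 called *Dcn*, *Lum*, *Col1a1*, *Col1a2*, *Col3a1* and *Pi16* lower, against 1.30% of genes. The 9 adipocyte genes had a median of -0.14, the 7 macrophage genes one of -0.45 and the 7 lymphocyte genes one of 0.35, with summed levels of 3399 to 4033 against 2874 to 3189 CPM, 295 to 405 against 231 to 274 CPM, and 396 to 434 against 308 to 650 CPM. DESeq2 called *Lep*, *Mrc1* and *Adgre1* lower among them, beside the same 1.30%, and none higher. The part of these cells in the values of the vascular genes was not tested.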

How the data were processed

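The authors mapped the reads to GRCm38 with TopHat and Bowtie, counted them over GENCODE genes using featureCounts, and deposited 1 table of raw counts, not normalized, for each of 6 mice. The strand and multimapping settings were not given in the sources used here. Counts summed to 29661984 to 42357981 per mouse. The genotypes came from the sample labels. The 36 members and the lists of other genes were chosen with earlier results of these data known.

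The genotypes were compared by edgeR 4.0.16 under R 4.3.3 (TMM normalization, filterByExpr, quasi-likelihood test over 17667 genes, Benjamini-Hochberg adjustment, threshold 0.05), without covariates. Standard errors came from the F values of that test. Alternatives were DESeq2 1.42.0, limma-voom (limma 3.58.1), other normalizations and filters, the replicate block, a skeletal muscle covariate and leaving out each mouse. The skeletal muscle covariate and the ratio to the endothelial genes were added after the data had been seen. The test was tried on simulated counts, in which the changes set were larger than that of any member. This trial therefore does not show how often changes of the size seen here would be found. Exon lengths and overlaps came from GENCODE M21 (GRCm38), promoter windows from RefSeq (GRCm38.p6). Named were all members, *Egr1*, up to 3 genes of each other list with the lowest unadjusted p, and those that DESeq2 called. *Adipoq*, *Krt5*, *Krt14*, *Lyve1*, *Pdgfrb*, *Tpm1*, *Tpm2*, *Hbb-bs* and *Hbb-bt* were named outside this rule, after their values had been seen. Values per mouse are given for members with an unadjusted p under 0.05, the 2 of each role with the highest CPM per kb and the ligands, and for *Vwf* because its genotypes did not overlap. The mice were separate animals, some sharing a litter.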

Additional observations from a re-analysis of the deposited data

How the results depend on the processing

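No member was called by edgeR (5 had an unadjusted p under 0.05), while DESeq2 called 1, *Cspg4*, limma-voom 0, and edgeR without a filter on low counts 2, *Cspg4* and *Erg*. Over all genes, 3 were called with the main settings, 333 by DESeq2, 1 by limma-voom, 0 with upper-quartile normalization, 78 with total counts, 552 without a filter, 0 with a mean of 10 or more counts in each genotype, 6 with the skeletal muscle covariate and 0 to 59 when 1 mouse was left out, the 59 without *Egr1*-/- replicate 1. Members with an unadjusted p under 0.05 were 5, becoming 7 with DESeq2, 6 with the muscle covariate, 8 with total counts, 11 without a filter and 4 to 10 with 1 mouse left out. Members without overlap were 5, becoming 4 without a filter, 7 with upper-quartile normalization, 10 with total counts and 6 to 11 with 1 mouse left out, the fewer mice alone making overlap rarer. With the replicate block 0 genes were called, and 10 members had an unadjusted p under 0.05. Without *Egr1*-/- replicate 1, 15.1% of all genes were higher without overlap and 15.5% lower. There, 5.70% of all genes were higher and 7.26% lower with an unadjusted p under 0.05. That mouse was singled out by its values in the members, so these are not a like background for them. Total counts moved the median of all genes to -0.15. For the other alternatives these shares are not given, so their counts of members cannot be read against all genes. The replicate numbers were not taken as pairs, since the deviations of same-numbered mice correlated by -0.0888, 0.106 and -0.126 and 1 of 3 *Egr1*+/+ mice correlated best with its own number. The 3 medians moved by less than the spread between mice (an SD) under every alternative run, though the endothelial one, from -0.15 to 0.17, took both signs. With 3 mice in each genotype, leaving 1 out can hardly move a median by more than that spread. For those alternatives the comparison therefore cannot show stability. Without *Egr1*-/- replicate 1 the mural median went from -0.27 to -0.46.

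The sign changed for 12 members, whose main values lay between -0.19 and 0.16, and for no member with an unadjusted p under 0.05. With DESeq2 *Sox18* was at 0.0035, and with limma-voom *Pecam1* at -0.0043, *Cdh5* at -0.026, *Sox18* at 0.060 and *Vegfb* at 0.013. With total counts *Pecam1* was at -0.16, *Cdh5* at -0.18, *Emcn* at -0.14, *Esam* at -0.0044 and *Nos3* at -0.047, and without a filter *Plvap* at 0.0021 and *Sox18* at 0.014. With the replicate block *Pecam1* was at -0.0037, *Cdh5* at -0.025, *Sox18* at 0.019 and *Vegfb* at 0.021, and with the muscle covariate *Pecam1* at -0.028, *Cdh5* at -0.044, *Emcn* at -0.0076, *Plvap* at 0.0091 and *Sox18* at 0.076. Leaving out 1 mouse at a time gave -0.15 to 0.098 for *Pecam1*, -0.28 to 0.18 for *Cdh5*, -0.15 to 0.17 for *Emcn*, -0.096 to 0.048 for *Plvap*, -0.17 to 0.092 for *Kdr*, -0.54 to 0.071 for *Cldn5*, -0.18 to 0.33 for *Nos3*, -0.37 to 0.086 for *Sox7*, -0.22 to 0.29 for *Sox18*, -0.11 to 0.088 for *Notch3* and -0.26 to 0.29 for *Vegfb*. Apart from total counts, the normalizations and library sizes without mitochondrial genes moved no member across 0, and the cause of each change of sign was not tested.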

Other observations

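Red blood cell transcripts, which reach the tissue with the blood in its vessels, were lower in *Egr1*-/- mice for part of a list of 7 genes. *Hba-a1*, an alpha globin, lay at 125, 75.2 and 77.0 CPM in *Egr1*+/+ and at 63.5, 36.6 and 52.9 CPM in *Egr1*-/- mice without overlap, with an adjusted p of 0.260 in edgeR and 0.00988 in DESeq2. Its near-identical copy *Hba-a2*, between which reads can be split, and *Alas2*, the erythroid enzyme of haem synthesis, also did not overlap, with log2 fold changes of -0.75 ± 0.28 (SE) and -0.76 ± 0.28. Over all genes tested, 8.10% were lower without overlap. The beta globin *Hbb-bs* overlapped, at -0.07 ± 0.28 (SE), as did *Hbb-bt*, at 0.51 ± 0.34. *Hbb-bs* and *Hbb-bt* were chosen for mention after their values had been seen. The summed level of the 7 genes was 176 to 267 CPM in *Egr1*+/+ and 87.0 to 168 CPM in *Egr1*-/- mice.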
